A study of Homo sapiens with 6 samples.

Results

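The 10 genes studied here are widely used as readouts of the transcriptional coactivators YAP and TAZ, and were followed in the HFL-1 line, fibroblasts grown from human fetal lung. They are AXL, F3, NT5E, MYOF, FJX1, PTPN14, NUAK2, ASAP1, ANKRD1 and GADD45A. They were chosen by symbol from general knowledge of the pathway, with earlier results of these data known, and are 10 of 23355 genes in the count table. Transfection was with siNTC, a non-targeting siRNA, as the control, or with either of 2 siRNAs against TAZ, siTAZ #1 and siTAZ #2. Total RNA was taken 48 h later and sequenced on an Ion Proton. There were 2 libraries per group, described as biological replicates, and 6 in all. No other agent or genotype is named for any group, and all 3 groups received siRNA.

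YAP and TAZ do not bind DNA themselves. In the nucleus they join TEAD transcription factors, which bind the letters GGAATG or close variants of them, and the kinases LATS1 and LATS2 of the Hippo pathway keep them in the cytoplasm. Growth on a stiff surface, spreading and actin tension bring them into the nucleus, and in fibroblasts they are known for genes of matrix, adhesion and contraction. TAZ is the product of WWTR1. Its relative YAP shares most of its partners and targets, so that these genes can also be reached through YAP.

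The sequence before the start of each gene was searched for the TEAD letters because these are the letters through which YAP and TAZ reach DNA. Windows from RefSeq (GRCh38.p14 table) of 300 bases, 250 before the start and the first 50 of the transcript, were found for 8 of the 10 genes, with 9 windows because AXL has 2. ASAP1 and GADD45A were not searched. GGAATG, or CATTCC for the other strand, stood in a single window each of 4 of the 8 genes, ANKRD1, NUAK2, PTPN14 and AXL. It stood in 4928 of the 35116 windows of all genes (14%), a share of windows and not of genes. The 250 bases before the start are printed for these 4 genes, 5′ to 3′ on the strand of the gene, with the TEAD letters in capitals. Each window matched GRCh37 once and exactly, at chr10:92680845-92681094 (minus strand) for ANKRD1, chr1:205290874-205291123 (minus) for NUAK2, chr1:214724946-214725195 (minus) for PTPN14 and chr19:41732410-41732659 (plus) for the second window of AXL. These windows of PTPN14 and AXL lie inside the annotated spans of the same genes and not before them. Their place relative to exons was not examined.
ANKRD1: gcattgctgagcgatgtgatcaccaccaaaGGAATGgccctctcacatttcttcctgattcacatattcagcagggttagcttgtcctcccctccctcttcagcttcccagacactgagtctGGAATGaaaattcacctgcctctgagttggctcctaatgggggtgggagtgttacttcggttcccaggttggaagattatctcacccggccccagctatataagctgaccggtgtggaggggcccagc
NUAK2: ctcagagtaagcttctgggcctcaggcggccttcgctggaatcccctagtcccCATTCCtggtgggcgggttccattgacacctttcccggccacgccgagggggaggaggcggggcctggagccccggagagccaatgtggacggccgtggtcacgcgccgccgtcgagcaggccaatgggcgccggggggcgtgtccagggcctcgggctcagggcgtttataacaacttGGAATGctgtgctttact
PTPN14: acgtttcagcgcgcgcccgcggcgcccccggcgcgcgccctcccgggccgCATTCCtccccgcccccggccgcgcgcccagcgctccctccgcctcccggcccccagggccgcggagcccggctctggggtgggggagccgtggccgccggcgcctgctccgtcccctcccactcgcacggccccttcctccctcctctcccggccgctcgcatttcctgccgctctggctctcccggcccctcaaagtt
AXL, second window: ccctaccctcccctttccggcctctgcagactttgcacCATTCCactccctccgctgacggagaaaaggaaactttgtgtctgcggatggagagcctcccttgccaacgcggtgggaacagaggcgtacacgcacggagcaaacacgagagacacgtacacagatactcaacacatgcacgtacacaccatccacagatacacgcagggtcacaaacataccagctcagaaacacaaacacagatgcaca
ANKRD1 held the letters at 220 to 215 and at 128 to 123 bases before its start. NUAK2 held them at 197 to 192 and at 18 to 13, PTPN14 at 200 to 195 and AXL at 212 to 207. The letters of AP-1, TGACTCA or TGAGTCA, which often accompany TEAD at distant elements, stood in the window of F3 alone among the 8 genes, at 210 to 204 bases before its start, and in 4.95% of all windows. No match of AP-1 shared bases with one of TEAD. A match of letters is a description of the window, and binding was not measured.

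The counts on genes summed to between 15648055 and 32078188 per library. The library siTAZ #1 replicate 2 had strongly reduced counts from RANGAP1 on chromosome 22 to the end of Y. There, 455 of 474 genes averaging 50 counts or more were more than 4-fold below replicate 1, against 0 of 474 between the siNTC libraries. None of the 10 genes lies in that stretch, but the stretch widens the spread that all genes share in the fit, with a common dispersion of 0.0807 with it and 0.0164 without it. All calls on the 10 genes against siNTC and between the siRNAs held when its genes were left out. All 10 fibroblast markers were detected. Their summed level was 43001 to 43088 TMM-normalized CPM (counts scaled to a common library size) with siNTC, 31483 to 33802 with siTAZ #1 and 33349 to 35114 with siTAZ #2, so that the sum was lower with either siRNA. The markers did not move as 1 group. With siTAZ #1, 4 fell (COL1A1, COL1A2, DCN and LUM), 2 rose (PDGFRA and PDGFRB, log2 fold change 1.72 and 0.39) and 4 did not pass, and with siTAZ #2, 6 fell (COL1A2, COL3A1, DCN, LUM, VIM and FN1), 2 rose (THY1 and PDGFRB, 0.50 and 0.54) and 2 did not pass, among them COL1A1, which was above the controls in both libraries. Beside this, 9.78% of all genes tested fell and 10.8% rose with siTAZ #1, and 14.4% fell and 14.1% rose with siTAZ #2. Of 9 epithelial, 4 endothelial and 4 immune markers, 6, 3 and 3 stayed under 1 CPM in all libraries. The summed levels of these lists were 44.9 to 45.2, 0.888 to 1.58 and 74.0 to 75.3 CPM with siNTC, 40.2 to 47.8, 2.12 to 2.52 and 69.0 to 75.7 with siTAZ #1, and 59.1 to 64.6, 2.06 to 3.50 and 37.9 to 48.4 with siTAZ #2. Nearly all of the immune sum was CD68 (37.8 to 75.4 CPM), with PTPRC, CD3E and MS4A1 at 0.254 CPM or less in every library. Nearly all of the epithelial sum was KRT18 (29.7 to 50.4 CPM) and KRT8 (7.13 to 11.5 CPM), both highest with siTAZ #2. The part of these shifts in the results was not tested, and fewer cells of a type cannot be told apart from less RNA per cell.

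The targeted transcript was low in every library that should lack it. WWTR1 stood at 132 and 131 CPM in the siNTC libraries, at 26.4 and 28.4 with siTAZ #1 and at 46.1 and 43.1 with siTAZ #2. It thus fell to 20.8% of siNTC with siTAZ #1 (log2 fold change -2.26, SE 0.10, FDR 0.00062) and to 33.9% with siTAZ #2 (-1.56, SE 0.10, FDR 0.00068). These and the following values are from edgeR's quasi-likelihood test, with all 6 libraries fitted together, and FDR is the p-value adjusted by the Benjamini-Hochberg method over 14053 genes, with 0.05 as the threshold. The remaining TAZ transcript was lower with siTAZ #1 than with siTAZ #2, by a log2 difference of -0.70 (SE 0.10, FDR 0.005). With 2 libraries against 2, an exact permutation test of a single gene cannot give a p under 0.333, so none is reported.

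In control cells the 10 genes ran from high to low levels among the genes that passed the filter on low counts. Per kilobase of the canonical transcript, NT5E had the highest level of the 10, 295 CPM per kb. This was above 98.7% of the 13294 genes that passed the filter and had a transcript length. AXL, at 207, and F3, at 206, followed, and their replicate values crossed (201 and 214 for AXL, 221 and 191 for F3), so that the order of these neighbors is not resolved. MYOF stood at 101 CPM per kb, GADD45A at 33.1, ASAP1 at 21.9, FJX1 at 20.0, PTPN14 at 13.3 and NUAK2 at 7.32. ANKRD1 was at the other end with 0.212 CPM per kb, above 4.99% of these genes. All 10 passed the filter on low counts, ANKRD1 only through the siTAZ #2 libraries, where it was higher, so its rank in control cells depends on that filter.

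**Figure D1:**
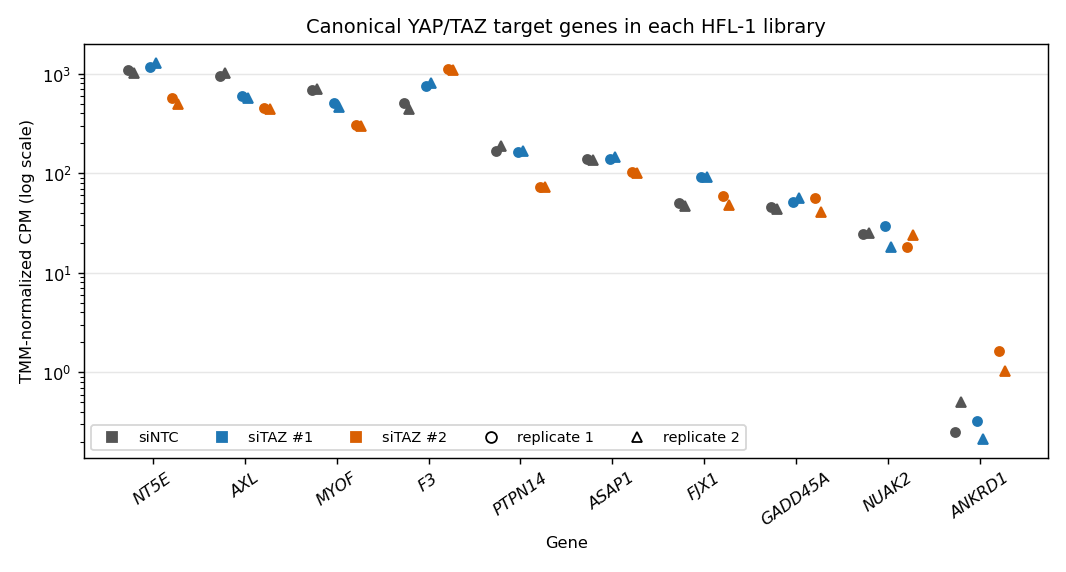
TMM-normalized CPM (log scale) of the 10 genes in each of the 6 libraries, with circles for replicate 1 and triangles for replicate 2, gray for siNTC, blue for siTAZ #1 and orange for siTAZ #2. AXL and MYOF step down from siNTC to siTAZ #1 to siTAZ #2 and F3 steps up, while NT5E, PTPN14 and ASAP1 are low with siTAZ #2 alone, and ANKRD1 is near 1 CPM or below in most libraries.

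Among the genes of the cell surface, AXL fell with either siRNA. AXL is the receptor tyrosine kinase for the ligand GAS6 and lies on chromosome 19 (GRCh37 chr19:41725128-41767671, plus strand). It had 950.0 and 1007 CPM in the siNTC libraries, 590.3 and 568 with siTAZ #1, and 446 and 443 with siTAZ #2. No library of any group overlapped with another group. The log2 fold change was -0.76 (SE 0.08, FDR 0.0028) with siTAZ #1 and -1.14 (SE 0.08, FDR 0.00071) with siTAZ #2, which left 59.2% and 45.4% of the control level. The call with siTAZ #2 held under each of the 16 alternative settings. That with siTAZ #1 was lost under edgeR's exact test on the 4 libraries (FDR 0.079). This test, here and below, used the libraries of 1 comparison, so the reduced stretch of siTAZ #1 replicate 2 entered only comparisons with siTAZ #1. Over all genes it called 492 lower and 569 higher with siTAZ #1, in place of 1374 and 1515. With siTAZ #2 it called 3165 and 3259, in place of 2021 and 1983. The part of the stretch in the losses under this test was not tested.

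F3 moved the other way. F3 encodes tissue factor, the membrane receptor for coagulation factor VII that starts the extrinsic pathway of clotting (chr1:94994729-95007315, minus strand). It had 508 and 439 CPM with siNTC, 756 and 806 with siTAZ #1, and 1121 and 1079 with siTAZ #2. Every library of either siRNA was above both controls, and the siTAZ #2 libraries were the highest. F3 rose by a log2 fold change of 0.72 (SE 0.10, FDR 0.0065) with siTAZ #1 and of 1.22 (SE 0.10, FDR 0.0011) with siTAZ #2, to 165% and 232% of siNTC. The call with siTAZ #1 was lost under the exact test (FDR 0.14) and without siNTC replicate 2 (FDR 0.07), and the call with siTAZ #2 held under each setting.

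NT5E fell with siTAZ #2. NT5E is CD73, the membrane-anchored enzyme that makes adenosine from AMP outside the cell and a common mesenchymal surface marker (chr6:86159302-86205509, plus strand). Its CPM were 1092 and 1009 with siNTC, 1177 and 1282 with siTAZ #1, and 571 and 497 with siTAZ #2. The siTAZ #1 libraries were thus above the controls and the siTAZ #2 libraries below. With siTAZ #2 the log2 fold change was -0.98 (SE 0.10, FDR 0.0023), or 50.8% of siNTC. With siTAZ #1 it was 0.23 (SE 0.10, 95% interval -0.03 to 0.48, FDR 0.18), which missed the threshold in the fit of 6 libraries and passed it without siTAZ #1 replicate 1 (FDR 0.031).

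MYOF, or myoferlin, a membrane protein of the ferlin family with roles in membrane fusion and repair, fell with either siRNA (chr10:95066186-95242091, minus strand). Its CPM were 688 and 699 with siNTC, 512 and 463 with siTAZ #1, and 301 and 296 with siTAZ #2. The 3 groups did not overlap. Its log2 fold change was -0.51 (SE 0.08, FDR 0.011) with siTAZ #1 and -1.22 (SE 0.08, FDR 0.00073) with siTAZ #2, leaving 70.3% and 43.1% of the control level. With siTAZ #1 the call was lost under the exact test (FDR 0.34) and without either siNTC library (FDR 0.089 without replicate 1 and 0.097 without replicate 2).

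FJX1 rose with siTAZ #1. Its protein is the relative of the Drosophila kinase four-jointed, which in the fly acts in the Golgi on the cadherins Fat and Dachsous (chr11:35640008-35642413, plus strand). FJX1 had 49.8 and 46.3 CPM with siNTC, 90.5 and 91.5 with siTAZ #1, and 58.8 and 48.3 with siTAZ #2. The siTAZ #1 libraries stood apart from the rest, and those of siTAZ #2 overlapped with the controls. The log2 fold change was 0.92 (SE 0.13, FDR 0.0068) with siTAZ #1, or 189% of siNTC, and 0.16 (SE 0.13, 95% interval -0.15 to 0.47, FDR 0.40) with siTAZ #2. The call with siTAZ #1 was lost under the exact test (FDR 0.051) and without either siNTC library (FDR 0.062 without replicate 1 and 0.074 without replicate 2).

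Of the intracellular regulators, PTPN14 fell with siTAZ #2. PTPN14 is a cytosolic tyrosine phosphatase that binds YAP and holds it in the cytoplasm (chr1:214522043-214725792, minus strand). It had 167 and 188 CPM with siNTC, 162 and 166 with siTAZ #1, and 72.9 and 72.7 with siTAZ #2. The siTAZ #1 libraries were just below the controls and those of siTAZ #2 far below. Its log2 fold change with siTAZ #2 was -1.29 (SE 0.09, FDR 0.00076), the lowest among the 10 genes in that comparison, and left 41.0% of the control level. With siTAZ #1 it was -0.11 (SE 0.09, 95% interval -0.33 to 0.10, FDR 0.41). The calls with siTAZ #2 of MYOF, NT5E and PTPN14 held under each of the 16 settings.

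ASAP1, an activator of Arf GTP hydrolysis at focal adhesions, also fell with siTAZ #2, by less (chr8:131064350-131455920, minus strand). It had 140.0 and 134 CPM with siNTC, 139.5 and 145 with siTAZ #1, and 104 and 100.4 with siTAZ #2. The controls and siTAZ #1 overlapped. The log2 fold change was -0.43 (SE 0.08, FDR 0.011) with siTAZ #2, or 74.4% of siNTC, and 0.05 (SE 0.08, 95% interval -0.13 to 0.24, FDR 0.65) with siTAZ #1. The call with siTAZ #2 was lost without any 1 of the 4 libraries of that comparison (FDR 0.081 and 0.063 without siNTC replicate 1 and 2, and 0.053 and 0.062 without siTAZ #2 replicate 1 and 2).

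NUAK2, a kinase related to AMPK that acts on actomyosin contraction, did not pass the test in any comparison (chr1:205271191-205290873, minus strand). Its CPM were 24.7 and 25.0 with siNTC, 29.4 and 18.2 with siTAZ #1, and 18.3 and 23.9 with siTAZ #2. The replicates of each siRNA were far apart, and the siTAZ #1 libraries lay on either side of the controls. The 95% interval of the log2 fold change was -0.71 to 0.57 with siTAZ #1 (FDR 0.88) and -0.87 to 0.41 with siTAZ #2 (FDR 0.55), which leaves room for a change of either sign.

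GADD45A, a stress-induced protein of growth arrest and DNA repair, also missed the threshold in each comparison (chr1:68150884-68154017, plus strand). It had 45.5 and 44.1 CPM with siNTC, 50.8 and 56.2 with siTAZ #1, and 56.3 and 40.5 with siTAZ #2. Both siTAZ #1 libraries were above the controls, and the siTAZ #2 libraries lay on either side of them. The log2 fold change was 0.25 (95% interval -0.18 to 0.69, FDR 0.36) with siTAZ #1 and 0.11 (-0.32 to 0.55, FDR 0.68) with siTAZ #2.

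ANKRD1, a titin-binding protein of muscle that also enters the nucleus and is among the most used YAP/TAZ readouts in other cells, was close to the detection limit (chr10:92671853-92680844, minus strand). It had 4 and 8 counts in the siNTC libraries, 5 and 7 with siTAZ #1, and 35 and 17 with siTAZ #2, or 0.254 and 0.505, 0.323 and 0.215, and 1.64 and 1.03 CPM. Both siTAZ #2 libraries were above all others, and those of siTAZ #1 overlapped with the controls. Per library size, the summed counts of siTAZ #2 were 3.61 times those of siNTC, with an exact Poisson 95% interval of 1.90 to 7.43 that covers counting error only. In edgeR, which adds the spread between libraries, the log2 fold change was 1.80 (SE 0.61, FDR 0.077), and it passed the threshold under the exact test (FDR 0.015) and in a fit of the 4 libraries alone (FDR 0.039). As the gene passed the filter only through the siTAZ #2 libraries, these values are a description and not support for a change, and with no filter the FDR was 0.13. With siTAZ #1 the ratio of counts was 0.657 (exact Poisson 95% interval 0.270 to 1.60, counting error only). In edgeR the log2 fold change was -0.54 (SE 0.69, 95% interval -2.24 to 1.15, FDR 0.62). The edgeR interval leaves room for a change of either sign, so no limit to a fall is read from the counting interval.

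**Figure D2:**
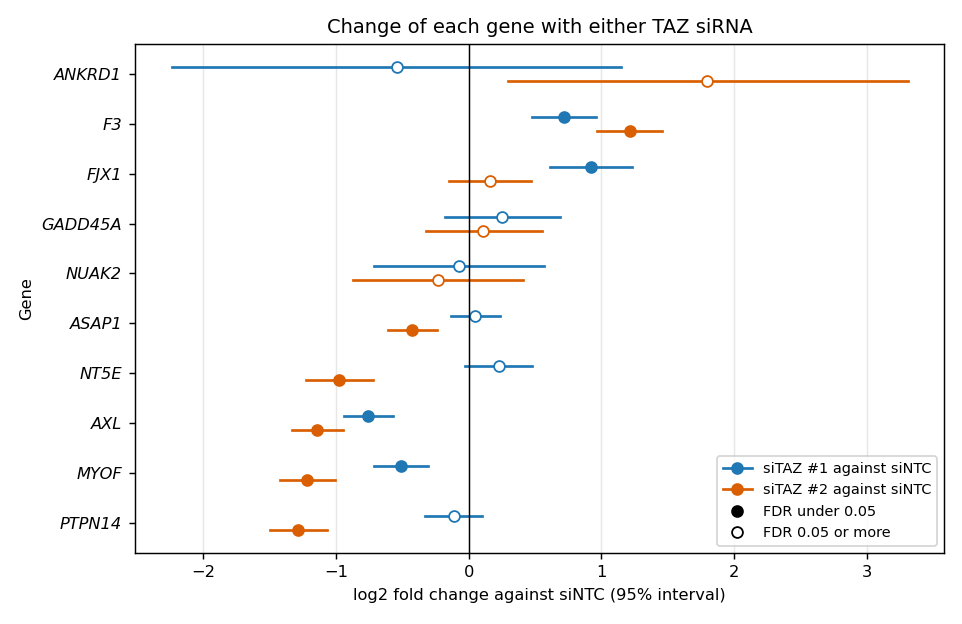
Log2 fold change of each gene against siNTC with its 95% interval, blue for siTAZ #1 and orange for siTAZ #2, with filled points for FDR under 0.05. With siTAZ #2 filled points lie left of 0 for PTPN14, MYOF, AXL, NT5E and ASAP1 and right of 0 for F3, and with siTAZ #1 for AXL and MYOF on the left and F3 and FJX1 on the right.

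As a group, the 10 genes went in both directions. With siTAZ #1, 2 fell (AXL and MYOF), 2 rose (F3 and FJX1) and 6 did not pass the test, where 9.78% of all genes tested fell and 10.8% rose. With siTAZ #2, 5 fell (AXL, MYOF, NT5E, PTPN14 and ASAP1), 1 rose (F3) and 4 did not pass, where 14.4% of all genes fell and 14.1% rose. Both comparisons use the same siNTC libraries. Both libraries of siTAZ #1 were below both controls for 3 of the 10 genes and above them for 4, against 31.1% and 33.2% of all genes. For siTAZ #2 this was so for 6 and 2 genes, against 35.5% and 36.0%, with ANKRD1 as 1 of the 2 above. The median log2 fold change of the 10 genes was -0.01 with siTAZ #1 and -0.33 with siTAZ #2, beside 0.02 and 0.01 for all genes tested. Without regard to sign, the median change was 0.38 with siTAZ #1, beside 0.37 for all genes, and 1.06 with siTAZ #2, beside 0.41. Both medians with siTAZ #2 include ANKRD1 at 1.80, which passed the filter on low counts only through those libraries, so they are a description.

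**Figure D3:**
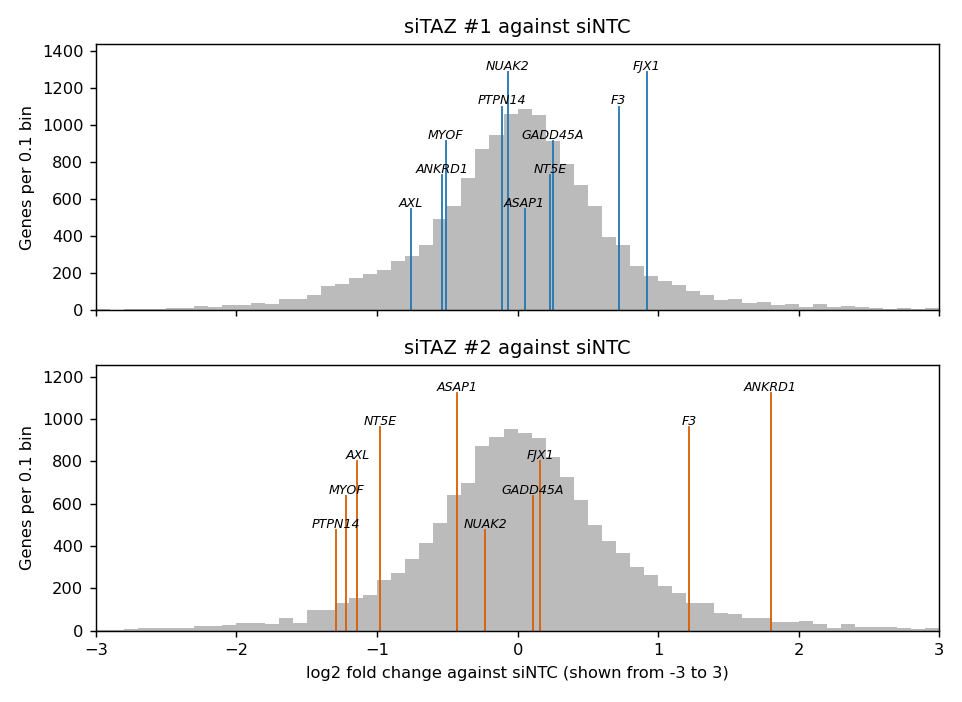
Histograms of the log2 fold change against siNTC of all genes tested (gray, genes per bin of 0.1, shown from -3 to 3) for siTAZ #1 (top) and siTAZ #2 (bottom), with a vertical line for each of the 10 genes. With siTAZ #1 the lines fall between -0.76 and 0.92, while with siTAZ #2 PTPN14, MYOF, AXL and NT5E gather between -1.29 and -0.98 and F3 and ANKRD1 stand at 1.22 and 1.80.

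The siRNAs were then compared directly. Between siTAZ #1 and siTAZ #2, 6 of the 10 genes were higher with siTAZ #1 (NT5E, PTPN14, FJX1, MYOF, ASAP1 and AXL), 2 were lower (F3 and ANKRD1) and NUAK2 and GADD45A did not pass the test, where 15.2% of all genes were higher and 13.4% lower. ANKRD1 entered this test only through the siTAZ #2 libraries, so its call is given as a description and F3 is the only one of the 2 lower genes read against that share. NT5E had the largest log2 difference of the 6, 1.20 (SE 0.11, FDR 0.0014), followed by PTPN14 with 1.17 (SE 0.09, FDR 0.001). The differences of NT5E and PTPN14 held under each setting. FJX1 differed by 0.77 (SE 0.13, FDR 0.0085), MYOF by 0.71 (SE 0.08, FDR 0.0028), ASAP1 by 0.48 (SE 0.08, FDR 0.0074) and AXL by 0.38 (SE 0.08, FDR 0.015). F3 was lower with siTAZ #1 by a log2 difference of -0.49 (SE 0.10, FDR 0.015). These calls of AXL and F3 were lost under the exact test (FDR 0.50 and 0.35) and without either siTAZ #2 library (AXL at FDR 0.074 without replicate 1 and 0.085 without replicate 2, F3 at 0.08 and 0.074), and that of ASAP1 under the exact test (FDR 0.30) and without siTAZ #2 replicate 2 (FDR 0.053). Those of MYOF and FJX1 were lost under the exact test alone (FDR 0.11 for each).

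For ANKRD1 the fitted difference was -2.35 (SE 0.62, 95% interval -3.87 to -0.83, FDR 0.037), on 12 counts against 52. The filter on low counts kept the gene because it was high with siTAZ #2, and with no filter the FDR was 0.055. The call was lost in 10 of the 15 settings that tested the gene, among them the removal of any 1 of the 6 libraries (FDR 0.068 to 0.18). For NUAK2 the difference was 0.17 (95% interval -0.47 to 0.81, FDR 0.67) and for GADD45A 0.14 (-0.29 to 0.58, FDR 0.59). The TAZ transcript itself was lower with siTAZ #1, as given above. AXL, MYOF, NT5E, PTPN14 and ASAP1 were lower with siTAZ #2. Whether the differences between the siRNAs relate to the remaining TAZ transcript was not tested.

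**Figure D4:**
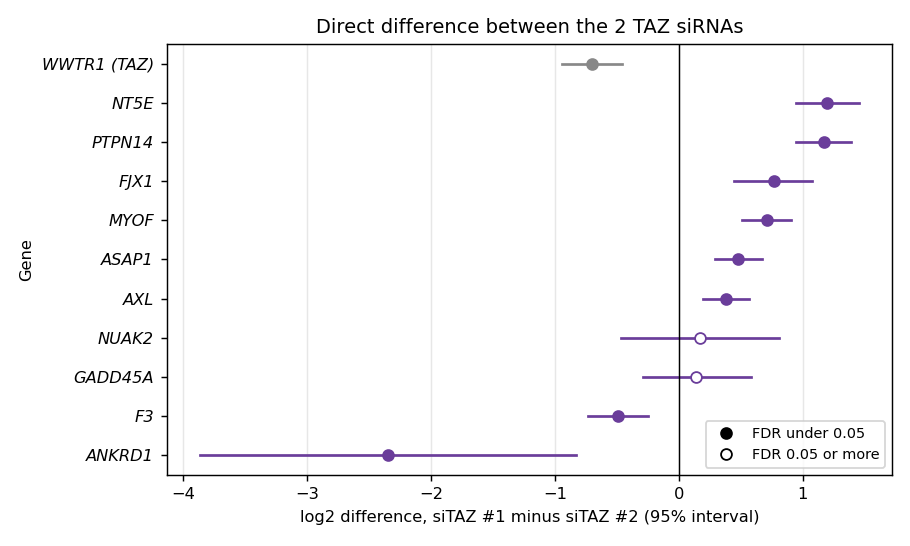
Log2 difference between siTAZ #1 and siTAZ #2 with its 95% interval for the 10 genes (purple) and for WWTR1 (gray), with filled points for FDR under 0.05. NT5E and PTPN14 lie farthest to the right at 1.20 and 1.17, F3 and ANKRD1 lie left of 0, and WWTR1 stands at -0.70.

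The genes around these 10 were read from lists chosen by known role. Of 12 other YAP/TAZ targets, of which LATS2 and AMOTL2 also belong to the Hippo pathway list, 7 fell, 1 rose and 4 did not pass with siTAZ #1 (median log2 fold change -0.72), and 5 fell, 2 rose and 5 did not pass with siTAZ #2 (median -0.29). Of all genes tested, 9.78% fell and 10.8% rose with siTAZ #1, and 14.4% fell and 14.1% rose with siTAZ #2. Of the 12, LATS2 passed as higher with siTAZ #1 only (log2 fold change 0.76, FDR 0.018). ARHGEF17 and TGFB2 passed as higher with siTAZ #2 only (0.90, FDR 0.002, and 0.94, FDR 0.0094). CYR61 and RBMS3 passed as lower with siTAZ #1 only (-0.70, FDR 0.0052, and -0.73, FDR 0.027). Those that passed the test with each siRNA all fell. The share of all genes passing with each siRNA was not computed, so nothing is read from their number. CTGF, a secreted matrix protein, had 1282 and 1235 CPM with siNTC, 487 and 415 with siTAZ #1 and 301 and 310 with siTAZ #2 (log2 fold change -1.48 and -2.04, FDR 0.001 and 0.0005). IGFBP3, which binds insulin-like growth factors, had 310.4 and 344 CPM with siNTC, 14.6 and 17.1 with siTAZ #1 and 33.5 and 27.0 with siTAZ #2 (-4.37 and -3.43, FDR 0.00043 and 0.00037). CRIM1, a membrane protein that binds BMPs, changed by -1.70 and -1.40 (FDR 0.00084 and 0.00088), CCDC80, a matrix protein, by -0.80 and -0.33 (FDR 0.0042 and 0.043), and DOCK5, an activator of Rac, by -1.25 and -1.43 (FDR 0.0038 and 0.0018).

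Of 24 genes of the Hippo pathway, WWTR1 included, 5 fell, 8 rose and 11 did not pass with siTAZ #1, and 3 fell, 8 rose and 13 did not pass with siTAZ #2, with a median log2 fold change of -0.01 in either comparison, beside the same shares of all genes. AMOT, a member of this list that did not pass the test in either comparison, lies on X in the stretch with strongly reduced counts in siTAZ #1 replicate 2 (143 counts in replicate 1 and 38 in replicate 2). YAP1, named here after its values were seen, had 211 and 195 CPM with siNTC, 283 and 349 with siTAZ #1 and 323 and 266 with siTAZ #2. It was thus higher in every library of either siRNA (log2 fold change 0.64, SE 0.14, FDR 0.029, and 0.54, SE 0.14, FDR 0.039). Others of the list, also named after their values were seen, passed with each siRNA. The share of all genes that did so was not computed. LATS1 (1.11 and 1.33, FDR 0.0051 and 0.0021), MAP4K4 (1.21 and 0.35, FDR 0.0017 and 0.048) and VGLL4 (0.50 and 0.49, FDR 0.048 and 0.041) rose. WWTR1, WWC1 (-0.85 and -1.30, FDR 0.032 and 0.0068) and AMOTL1 (-0.40 and -0.91, FDR 0.018 and 0.0012) fell. FRMD6 went in opposite directions (-0.47 and 0.38, FDR 0.032 and 0.046).

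Ligands, receptors, paralogs and substrates of the 10 genes made up a further list of 53 genes, of which 45 were tested. With siTAZ #1, 7 fell, 4 rose and 34 did not pass (median log2 fold change 0.14). With siTAZ #2, 4 fell, 11 rose and 30 did not pass (median 0.36). The shares of all genes were again 9.78% and 10.8% with siTAZ #1 and 14.4% and 14.1% with siTAZ #2, and nothing particular to the list is read from its counts. Of these 45 genes, 5 passed with each siRNA. The share of all genes that did so was not computed, and both comparisons use the same siNTC libraries, so nothing is read from this number. Around AXL, which fell, the related receptor TYRO3 rose from 34.4 and 33.1 CPM with siNTC to 50.2 and 49.3 with siTAZ #1 and 83.6 and 91.1 with siTAZ #2 (log2 fold change 0.56 and 1.37, FDR 0.017 and 0.00092). The ligand GAS6 went in opposite directions, with 537 and 509 CPM in siNTC, 433 and 397 with siTAZ #1 and 809.8 and 745 with siTAZ #2 (-0.33 and 0.57, FDR 0.048 and 0.007). The siRNAs differed for GAS6 by -0.90 (SE 0.09, FDR 0.0018). PTPN21, the closest paralog of PTPN14, rose from 35.3 and 39.6 CPM to 74.5 and 80.3 with siTAZ #1 and 133 and 127 with siTAZ #2 (1.05 and 1.80, FDR 0.0025 and 0.00063). DCHS1, the Dachsous cadherin of the FJX1 list, rose by 0.50 and 1.01 (FDR 0.018 and 0.0016). GADD45B, the paralog of GADD45A, fell with siTAZ #1 and rose with siTAZ #2, with 25.0 and 22.3 CPM in siNTC, 9.68 and 12.8 with siTAZ #1 and 37.5 and 35.3 with siTAZ #2 (-1.07 and 0.62, FDR 0.012 and 0.045, difference -1.69, SE 0.18, FDR 0.0023).

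In the annotation of GRCh37 (GENCODE), exons of other genes overlap with those of AXL, PTPN14 and ASAP1. AXL shares 67 bases with an antisense noncoding gene, PTPN14 shares 151 bases with a noncoding gene on its own strand and 1213 bases, outside its canonical transcript, with the pseudogene KRT18P12 on the opposite strand, and ASAP1 shares 575 bases, outside its canonical transcript, with an antisense noncoding gene. Without a stated strand setting, reads of AXL, PTPN14 and ASAP1 cannot be told apart from antisense reads there.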

How the data were processed

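Gene expression in HFL-1 cells was measured by RNA sequencing 48 h after transfection of siNTC, siTAZ #1 or siTAZ #2. The deposited table holds raw counts, without normalization. To make it, the authors mapped the Ion Proton reads on hg19 (TMAP) and assigned them to genes with HTSeq 0.6.1. The strand setting and counting mode are not given in the sources used here. Of 23368 entries, 13 showed dates in place of symbols (0.0458% to 0.0506% of the counts) and were left out.

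Genes were filtered with filterByExpr by group (about 0.612 CPM in at least 2 libraries), scaled by TMM and compared in R 4.3.3 with edgeR 4.0.16 (quasi-likelihood test), with the 6 libraries in 1 fit and an FDR threshold of 0.05 over 14053 genes. Each siRNA was compared with siNTC and with the other. Standard errors are the log2 fold change divided by the root of its F statistic. The procedure was also run on simulated data with the same dispersion for every gene, smaller than the common dispersion of 0.0807 in the main fit. Those data lacked the reduced counts from RANGAP1 to Y, so the run does not show how the test performs under the conditions here. Replicates of a group differed by more than sampling noise (mean chi-square per gene 5.38, 23.5 and 11.7 for siNTC, siTAZ #1 and siTAZ #2, outside the stretch from RANGAP1 to Y). The alternatives were DESeq2 1.42.0, edgeR's exact test on 4 libraries, scaling by RLE, by upper quartile or by library totals, no filter, a minimum mean count of 50, fitting 4 libraries alone, a replicate block, each library left out in turn, and leaving out the genes from RANGAP1 to Y. Levels per kilobase divide CPM by the length of the canonical transcript in GENCODE. Promoter letters were searched on both strands.

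The 10 genes and all lists were chosen with earlier results of these data known. All 10 were named, and of the Hippo pathway list and the partners those called with each siRNA. Of the other targets, those called with either siRNA were named. AMOT was named for its place in the stretch from RANGAP1 to Y. Intervals from counts cover counting error only.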

Additional observations from a re-analysis of the deposited data

Results flagged for a closer look

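Results were listed here where the siRNAs differed by a direct test, with no explanation weighed. The log2 difference of siTAZ #1 minus siTAZ #2 was -2.35 for ANKRD1, -0.49 for F3, 0.38 for AXL, 0.48 for ASAP1, 0.71 for MYOF, 0.77 for FJX1, 1.17 for PTPN14 and 1.20 for NT5E, in the fit of 6 libraries by edgeR. ANKRD1 passed the filter on low counts only through the siTAZ #2 libraries (12 counts against 52), so its value is a description. For NT5E, the siTAZ #1 libraries were above both controls and those of siTAZ #2 below both. Groups of 2 libraries are too small for a check of single outlying samples.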

How the results depend on the processing

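The 10 genes gave 30 log2 fold changes, each recomputed under up to 16 settings. Of these recomputed values, 432 kept direction and side of the threshold, 33 lost and 3 gained significance, and 6 changed sign, all of the last on leaving out a library and none of them a called value. Counts of called genes moved as follows, to be read beside the counts over all genes in the next paragraph. With siTAZ #1, the exact test called 0 lower and 0 higher in place of 2 and 2, and leaving out a library gave 1 to 2 lower and 0 to 3 higher. With siTAZ #2, the exact test and the fit of 4 libraries called 2 higher in place of 1, since ANKRD1 passed, and without either siNTC or either siTAZ #2 library 4 were lower in place of 5, since ASAP1 was lost. Between the siRNAs, 1 was lower in place of 2 under DESeq2, the exact test, no filter, a mean count of at least 50 (where ANKRD1 was not tested), the fit of 4 libraries and the replicate block, 0 to 1 on leaving out a library, and 2 were higher in place of 6 under the exact test, 5 without siTAZ #2 replicate 1 (AXL lost) and 4 without siTAZ #2 replicate 2 (AXL and ASAP1 lost). The cause was not tested. On leaving out a library, the log2 fold change of ANKRD1 with siTAZ #1 ran from -0.95 to 0.02 and that of NUAK2 from -0.45 to 0.24. GADD45A ran from -0.15 to 0.30 with siTAZ #2 and from -0.06 to 0.40 between the siRNAs, where NUAK2 ran from -0.21 to 0.48. The labels do not say whether libraries with the same replicate number were handled together. The correlation of same-numbered deviations over all genes was 0, 0.01 and -0.09, which cannot settle this with 2 libraries per group. The block by replicate number changed no call on the 10 genes except that of ANKRD1 between the siRNAs (-2.32, FDR 0.077).

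Over all genes, 1374 fell and 1515 rose with siTAZ #1, 492 and 569 under the exact test, 823 and 868 with the block, and 277 to 2604 and 279 to 2496 without 1 library. With siTAZ #2 the counts were 2021 and 1983, 3165 and 3259 under the exact test, 3024 and 3073 in the fit of 4, and 714 to 3011 and 614 to 3031 without 1 library. Between the siRNAs they were 1883 and 2137, 703 and 795 under the exact test, and 775 to 2828 and 1022 to 2831 without 1 library. Alternatives were run for the 10 genes and for counts over all genes, and not for the other genes named. Depth limits ANKRD1 most, with at most 35 counts in a library. With 2 libraries per group, the spread is borrowed from other genes and groups.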

Other observations

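Among genes listed beside the 10, several levels stood out as values only. PTPN21 and TYRO3 were higher with siTAZ #2 than with siTAZ #1 (log2 difference of siTAZ #1 minus siTAZ #2 -0.75, SE 0.10, FDR 0.0043 for PTPN21 and -0.81, SE 0.10, FDR 0.0037 for TYRO3), the same siRNA with which PTPN14 and AXL were lower. DCHS1 differed in the same direction (-0.52, SE 0.09, FDR 0.012). For CTGF the difference was 0.56 (SE 0.10, FDR 0.010), while IGFBP3 (-0.93, SE 0.14, FDR 0.0063) and CCDC80 (-0.47, SE 0.09, FDR 0.015) were lower with siTAZ #1. CRIM1 and DOCK5 missed the threshold for this difference (-0.30, 95% interval -0.55 to -0.05, and 0.19, -0.15 to 0.52). These genes were named for passing the test with each siRNA.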
